A study of Mus musculus with 12 samples.

Results

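The chemokine CCL1 was added to BW5147 cells that also received dexamethasone (Dex), and the arrays of these cells were compared with those of cells given Dex alone. The samples were taken by their titles: Dex+CCL1 1 and 2 and Dex 1 and 2, which are 4 of the 12 arrays. BW5147 is a mouse line derived from a thymic T cell lymphoma, bought from a cell repository, so all groups are treatments of 1 transformed line. Both groups received Dex, a synthetic glucocorticoid, at 100 ng/ml for 8 h, and the Dex+CCL1 group received CCL1 at 100 U/ml as well. The other groups used for comparison were unstimulated cells, CCL1 at 100 U/ml without Dex, and Dex at 100 ng/ml with the T cell cytokine interleukin-9 (IL-9) at 100 U/ml, each with 2 arrays. A sixth group, IL-9 without Dex, entered only through the shared spread of the model. Total RNA was hybridised to Affymetrix arrays, and each value is a signal, the brightness of a set of probes for 1 transcript on a linear scale. Arrays carry the numbers 1 and 2 within a group, with no word on separate cultures, so the p-values reflect array-to-array spread that may be technical only. Differences are of log2(signal + 16), with 1 unit close to a doubling at high signals and less for low ones.

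CCL1 is a secreted chemokine that binds Ccr8, a receptor coupled to inhibitory G proteins and carried by subsets of T cells. Chemokine receptors of this kind can start the RAS and ERK kinase cascade, which switches on immediate-early genes and, with them, inhibitors that shut the cascade down again. Dusp6 is such an inhibitor, a cytoplasmic phosphatase that removes the activating phosphates from ERK kinases. Dexamethasone acts through the glucocorticoid receptor Nr3c1 and kills many thymic lymphoma cells, and CCL1 is known as a factor that protects thymic lymphoma cells from this death.

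After control probe sets were removed and dim ones filtered out, 13575 probe sets were tested. Each array had been scaled to a trimmed mean signal of 100, so a common shift of all genes could not be seen. Dex 2 stood apart: its median correlation with the other arrays was 0.967, against 0.979 to 0.984 for the others, and the median absolute difference between Dex 1 and Dex 2 was 0.258, against 0.168 to 0.213 in the other groups. Results are therefore given also against Dex 1 alone. Of the arrays without Dex, unstimulated 1 and CCL1 1 held 13 glucocorticoid receptor targets at a centred mean level of 0.283 and 0.121, within or above the range of 0.0544 to 0.217 of the Dex and Dex+CCL1 arrays, whereas unstimulated 2 and CCL1 2 held them at -0.775 and -0.785. IL-9 1 and IL-9 2 held them at 0.215 and -0.680. The arrays numbered 1 without Dex thus did not look untreated by these genes, and what that does to the comparisons without Dex was not tested. The unstimulated and IL-9 pairs also enter the spread shared by all groups, so genes that differ within these pairs have larger standard errors in every comparison. The array CCL1 2 was of another array type than the other 11 and was deposited in a separate table. It entered no test except where it is named as added, and each number 2 difference without Dex is a difference across array types. T cell markers (11 genes with a probe set, 8 above the filter) summed to a signal of 3182 and 3895 in the Dex arrays and 3735 and 4098 in the Dex+CCL1 arrays, led by Thy1 at up to 1525. Markers of B cells (5 genes, 0 above the filter), macrophages (7 genes, 4 above the filter), fibroblasts (5 genes, 1 above the filter) and epithelium (4 genes, 1 above the filter) summed to 12.8 to 21.3, 44.3 to 65.4, 8.68 to 22.5 and 10.3 to 20.9 in these 4 arrays, with overlapping ranges of the 2 groups for each list. In RNA from a whole culture, fewer cells of a type and less RNA per cell cannot be told apart. In the B cell list no gene exceeded 7.95.

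Dusp6 was the 1 probe set past the threshold, an adjusted p under 0.05 by limma with Benjamini-Hochberg adjustment over all probe sets, which is 0.00737% of those tested. Its signal was 183 and 209 in the Dex arrays 1 and 2 and 509 and 622 in the Dex+CCL1 arrays. Both arrays with CCL1 lay far above both without it, 2.78 times higher in number 1 and 2.98 times in number 2. The rise was 1.45 (SE 0.16, limma adjusted p = 0.0222), from a mean signal of 196 ± 17.9 to 565 ± 79.6 (SD, n = 2 each). Against Dex 1 alone it was 1.54 (limma adjusted p = 0.0321). The call rested on the spread shared by the groups. It was lost without either Dex+CCL1 array (limma adjusted p = 0.155 without Dex+CCL1 1 and 0.847 without Dex+CCL1 2), without any 1 of the unstimulated, Dex+IL-9 and IL-9 arrays, and with the 6 Dex-treated arrays alone (0.221), the 4 arrays of the compared groups alone (0.488), array quality weights (0.068) or no intensity trend (0.0688), while the size of the rise lay between 1.27 and 1.59 in all of these and the other settings.

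Id2, Tuba8 and Sytl2 were the next genes of the response and missed the threshold in the main fit. Id2, an inhibitor of E protein transcription factors in lymphocyte development, had a signal of 54.4 and 49.4 with Dex and 154 and 136 with Dex+CCL1. The groups were well apart, with a difference of 1.24 (SE 0.18, limma adjusted p = 0.180) and of 1.19 against Dex 1 alone. A second Id2 probe set gave 15.8 and 28.6 with Dex and 50.4 and 77.4 with Dex+CCL1, and the third one stayed between 3.25 and 7.01 in all 4 arrays. Tuba8, an alpha tubulin isotype of restricted tissue distribution, had a signal of 157 and 127 with Dex and 443 and 427 with Dex+CCL1. It had the largest difference of all genes in the main fit, with both Dex arrays and the added 16, at 1.52 (SE 0.25, limma adjusted p = 0.348). Against Dex 1 alone it was 1.39, below the 1.54 of Dusp6 and the 1.66 of Pglyrp2. Sytl2, a synaptotagmin-like protein that ties Rab27 vesicles to the plasma membrane, had a signal of 93.7 and 61.2 with Dex and 213 and 191 with Dex+CCL1. Its difference was 1.24 (SE 0.24, limma adjusted p = 0.442), and 0.99 against Dex 1 alone, since Dex 2 was the lower of the control arrays. In these 3 genes, as in Dusp6, the arrays of the groups did not overlap. This holds for 13.8% of all probe sets in the direction of higher signals with CCL1.

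**Figure D1:**
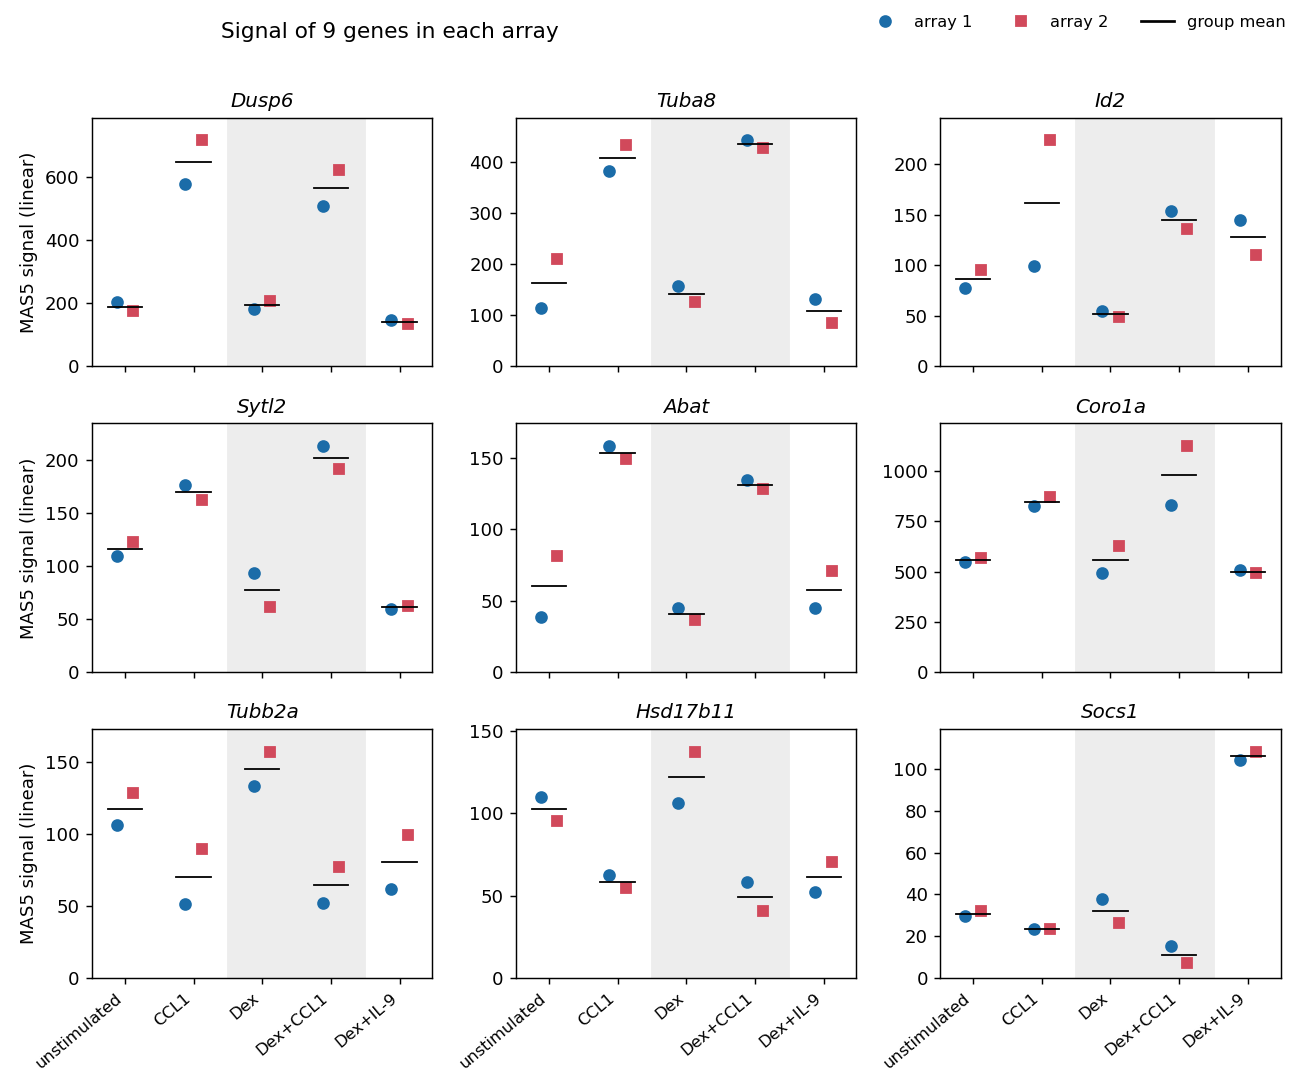
Signal (linear scale) of 9 genes in each array of 5 groups, with circles for array 1, squares for array 2 and bars for the mean of the 2 arrays; the compared groups Dex and Dex+CCL1 are shaded. Dusp6 lies at 509 and 622 with Dex+CCL1 against 183 and 209 with Dex, Tubb2a at 52.3 and 76.7 against 133 and 157, and Id2 with Dex+IL-9 lies at 145 and 110, near its level with Dex+CCL1.

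The sequences upstream of 5 genes of this comparison are shown, picked in part because they differ in the motifs they carry. They are not simply the genes of largest difference. Socs1, at -0.83, differed less than Ahsg (-1.19) and Tnfsf14 (-1.26), whose sequences are not printed. Motifs in the printed windows therefore do not stand for those of the other genes. Each is the 250 bases before the annotated start, 5′ to 3′ along the gene's strand, from RefSeq on GRCm38.p6, with motif matches in capitals. The motifs searched on both strands were the ETS core CCGGAA, the AP-1 site TGANTCA, the cAMP response element (CRE) TGACGTCA, an EGR site GCGTGGGCG, the glucocorticoid response element by its name and the E-box CACGTG, and none of the matches printed overlap another. The windows are chr10:99262981-99263230 (+ strand) for Dusp6, chr12:25096093-25096342 (- strand) for Id2, chr6:121210484-121210733 (+ strand) for Tuba8, chr13:34078009-34078258 (- strand) for Tubb2a and chr16:10785537-10785786 (- strand) for Socs1.
Dusp6: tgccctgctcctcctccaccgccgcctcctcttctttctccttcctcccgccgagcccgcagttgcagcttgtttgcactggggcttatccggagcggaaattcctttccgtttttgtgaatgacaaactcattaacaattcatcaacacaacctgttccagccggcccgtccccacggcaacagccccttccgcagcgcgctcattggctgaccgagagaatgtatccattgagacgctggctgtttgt
Id2: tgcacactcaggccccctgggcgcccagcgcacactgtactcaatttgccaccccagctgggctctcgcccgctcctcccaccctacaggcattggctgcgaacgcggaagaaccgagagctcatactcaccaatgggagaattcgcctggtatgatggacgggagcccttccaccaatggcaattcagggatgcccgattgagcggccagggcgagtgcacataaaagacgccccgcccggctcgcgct
Tuba8: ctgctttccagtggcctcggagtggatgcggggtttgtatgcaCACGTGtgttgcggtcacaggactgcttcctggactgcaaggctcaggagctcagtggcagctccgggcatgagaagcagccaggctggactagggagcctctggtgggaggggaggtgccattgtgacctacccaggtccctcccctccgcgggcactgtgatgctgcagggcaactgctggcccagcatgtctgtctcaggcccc
Tubb2a: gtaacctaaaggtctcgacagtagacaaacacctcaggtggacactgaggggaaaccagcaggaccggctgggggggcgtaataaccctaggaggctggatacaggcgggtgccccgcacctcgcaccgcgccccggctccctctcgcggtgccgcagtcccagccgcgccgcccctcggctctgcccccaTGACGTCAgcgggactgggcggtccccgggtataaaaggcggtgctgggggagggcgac
Socs1: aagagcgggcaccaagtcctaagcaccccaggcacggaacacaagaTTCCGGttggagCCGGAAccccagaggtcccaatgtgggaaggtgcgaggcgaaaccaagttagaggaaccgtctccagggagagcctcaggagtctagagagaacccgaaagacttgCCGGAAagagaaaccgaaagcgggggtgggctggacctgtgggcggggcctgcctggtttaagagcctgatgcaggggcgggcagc

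The windows of Dusp6 and Id2 held none of the 6 motifs. The Tuba8 window held an E-box that starts 207 bases before the gene start, the Tubb2a window a CRE at 59 bases before it, and the Socs1 window 3 ETS cores, at 204, 192 and 86 bases before it. Of 32851 mouse promoter windows of this length, 12% held the ETS core, 6.75% the AP-1 site, 1.55% the CRE, 0.536% the EGR site, 0.00913% the glucocorticoid response element and 6.02% the E-box. Among 15 windows of 10 of the 15 genes named as higher with CCL1, 2 held the ETS core (Coro1a and Nr4a1), 1 the AP-1 site (Cysrt1) and 1 the E-box. Among 19 windows of 17 of the 19 genes named as lower, 2 held the ETS core (Smox and Socs1), 2 the AP-1 site (Psap and Tnfsf14), 1 the CRE and 2 the E-box (Ptprs and Mxd4). No window of either set held the EGR site or the glucocorticoid response element. The latter was searched in an exact form that only 0.00913% of all windows held. Its absence here was close to certain beforehand, so nothing on receptor binding follows from it.

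Beyond the 4 genes above, the comparison was read number by number. In number 1 (Dex+CCL1 1 minus Dex 1) 34 probe sets were higher by at least 1 log2 (0.250% of those tested) and 43 lower (0.317%). In number 2, which rests on Dex 2, 322 were higher (2.37%) and 83 lower (0.611%). Only 6 probe sets were higher in both (0.0442%) and 2 lower in both (0.0147%), and 6 passed 1 log2 in opposite directions (0.0442%). The excess of higher values in number 2 therefore had little counterpart in number 1. By gene, with 1 probe set each, Tuba8, Dusp6, Abat, Id2 and Sytl2 were higher in both (0.0666% of genes) and Ahsg and Tnfsf14 lower in both (0.0266%). By limma 885 probe sets (6.52%) had an unadjusted p under 0.05, 378 higher (2.78%) and 507 lower (3.73%).

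**Figure D2:**
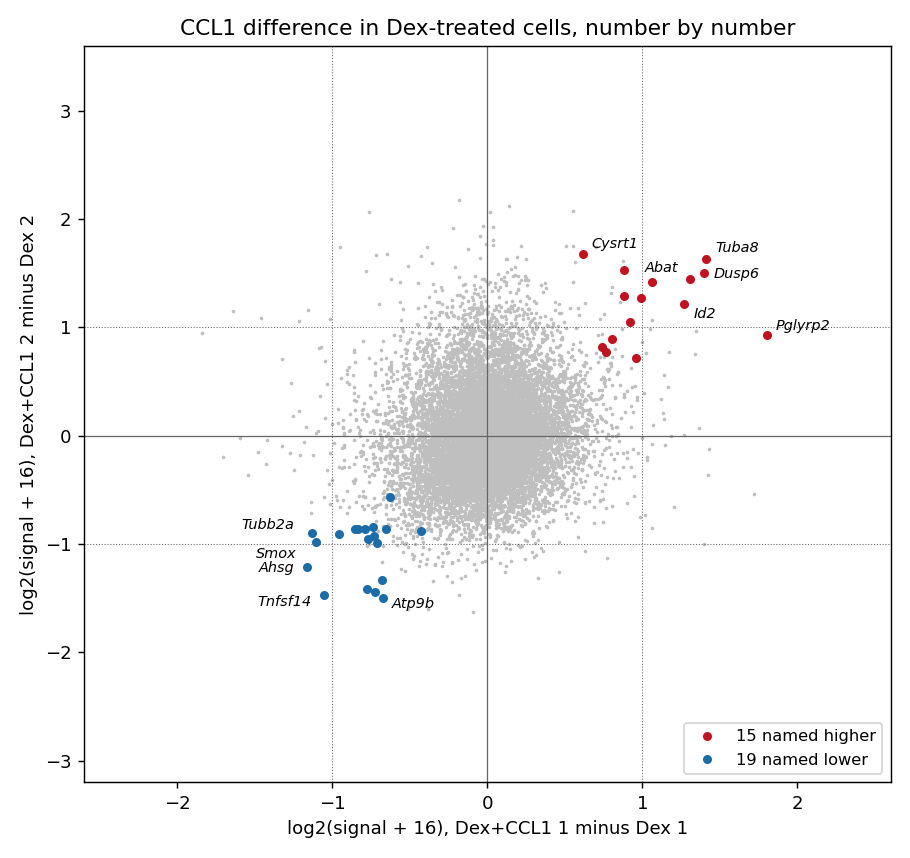
Each point is 1 of 13575 probe sets, with the log2(signal + 16) difference of Dex+CCL1 1 minus Dex 1 on the x axis and of Dex+CCL1 2 minus Dex 2 on the y axis; dotted lines mark a difference of 1 log2, and colours mark the 15 genes named as higher and the 19 named as lower. Points reach farther up than to the right, with 322 probe sets above 1 log2 in number 2 and 34 in number 1.

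A rule of smallest p and largest repeated difference named 15 genes as higher, 4 of them described above, and 19 as lower, and of these 34 genes only Dusp6 passed the threshold. In all 34 the arrays of the 2 groups did not overlap, as 12.7% of all genes did in the higher and 20.8% in the lower direction, which the rule itself favours. Abat, the transaminase that breaks down the transmitter GABA, had a signal of 44.8 and 36.8 with Dex and 134 and 128 with Dex+CCL1. Its difference was 1.38 (SE 0.27, limma adjusted p = 0.442), nearly the size of that of Dusp6, and 1.27 against Dex 1 alone. Coro1a, a coronin that regulates actin in lymphocytes, had the highest signals of the 15 higher genes, 492 and 628 with Dex and 832 and 1124 with Dex+CCL1. The groups were apart by a modest 0.78 (SE 0.17, limma adjusted p = 0.533), and a second probe set had a difference of 0.53. Ppp1r18, a regulatory subunit of protein phosphatase 1 found with actin, had 117 and 160 with Dex and 243 and 274 with Dex+CCL1, a difference of 0.84. Kif2a, a kinesin that shortens microtubules, had 169 and 114 with Dex and 298 and 205 with Dex+CCL1. Its difference of 0.77 was 0.52 against Dex 1 alone, so that Dex 2 made up part of it, and 4 of the other probe sets of Kif2a differed by 0.014 to 0.59. Pde7a, a phosphodiesterase that breaks down cAMP, had 80.7 and 60.4 with Dex and 167 and 142 with Dex+CCL1, a difference of 0.99.

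The remaining genes named as higher had low signals in the Dex arrays, where the added 16 shrinks the difference. Nr4a1, an orphan nuclear receptor induced early by antigen receptor and growth factor signals, had 38.6 and 18.9 with Dex and 84.7 in each Dex+CCL1 array, a difference of 1.21 (SE 0.37, limma adjusted p = 0.738) and of 0.88 against Dex 1 alone. Usp18, a protease that removes the ubiquitin-like protein ISG15 from its targets, had 9.53 and 3.12 with Dex and 31.0 and 30.7 with Dex+CCL1. Pglyrp2, an amidase that cleaves peptidoglycan, had 11.1 and 24.6 with Dex and 78.5 and 61.2 with Dex+CCL1. All 3 were at least 2.19 times higher in each number on the linear scale. Mmp9, a secreted gelatinase, was at 1.45 and 1.02 with Dex, below the filter's signal of 6.32, and at 18.7 and 25.1 with Dex+CCL1, and its other probe set was at 1.12 and 2.34 against 34.2 and 9.17. Il17re, a subunit of the receptor for IL-17C, had 4.49 and 8.65 with Dex and 19.7 and 29.9 with Dex+CCL1. Cysrt1 had 7.88 and 4.08 with Dex and 20.5 and 48.3 with Dex+CCL1, and is a probe set whose suffix marks several matching transcripts. For Mmp9, Il17re and Cysrt1 the Dex arrays sat near the lowest signals kept, so the size of these differences is poorly set.

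Among the genes named as lower, Tubb2a, a beta tubulin isotype, had 133 and 157 with Dex and 52.3 and 76.7 with Dex+CCL1. The lower signal was seen in both numbers, with a mean difference of -1.01 (SE 0.24, limma adjusted p = 0.533) and of -0.91 against Dex 1 alone. Its probe set carries the suffix for several transcripts, so close relatives among the tubulins may share its signal. Psap, the precursor of the saposins that help lysosomal enzymes degrade sphingolipids, had 534 and 661 with Dex and 393 and 353 with Dex+CCL1, a difference of -0.65. Grn, the precursor of the lysosomal granulins, had 611 and 618 with Dex and 389 and 413 with Dex+CCL1. Its difference of -0.60 (SE 0.14) was close to that of -0.67 of a second probe set. Both of these carry a suffix for probes that may match other sequences. The third, without that suffix, had overlapping arrays and a difference of -0.34. Cerk, the kinase that phosphorylates ceramide, had 91.6 and 97.9 with Dex and 47.0 and 42.7 with Dex+CCL1. Ptprs, a receptor-type tyrosine phosphatase, had 66.3 and 60.02 with Dex and 30.2 and 25.9 with Dex+CCL1, and Slc35b4, a carrier of nucleotide sugars, had 186 and 193 with Dex and 112 and 98.9 with Dex+CCL1. In these 3 genes the 2 arrays of each group lay close together, and both other probe sets of Slc35b4 were lower with CCL1 as well, by 0.79 and 0.69.

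Hsd17b11, a steroid and lipid droplet dehydrogenase, had the smallest p among the genes lower with CCL1. Its signal was 107 and 137 with Dex and 58.0 and 40.5 with Dex+CCL1, with a difference of -1.08 (SE 0.21, limma adjusted p = 0.442) and of -0.92 against Dex 1 alone. Ndst2, an enzyme of heparan sulfate synthesis, followed with 112 and 137 against 58.5 and 41.1. In both genes Dex 2 was the higher control and Dex+CCL1 2 the lower treated array, so the difference was larger in number 2 (-1.44 for Hsd17b11 and -1.42 for Ndst2) than in number 1 (-0.73 and -0.78). Pou2af1, a coactivator of octamer-binding transcription factors, had 171 and 210 with Dex and 100.4 and 73.9 with Dex+CCL1. Inpp5k, a phosphatase of inositol lipids, had 78.4 and 90.3 against 41.6 and 37.6, but its other kept probe sets had overlapping arrays and differences of 0.065 and -0.39. Selenbp1, a selenium-binding protein, had 77.3 and 77.2 against 40.3 and 33.1. The probe set of Selenbp1 also matches several transcripts.

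Socs1, which blocks JAK kinases, had 37.8 and 26.1 with Dex and 15.1 and 7.11 with Dex+CCL1, a difference of -0.83 (SE 0.22, limma adjusted p = 0.638). Tnfsf14, the costimulatory ligand LIGHT, had 81.4 and 91.8 with Dex and 30.9 and 22.9 with Dex+CCL1. Its second probe set had 50.5 and 42.6 with Dex and 25.8 and 13.0 with Dex+CCL1, so both showed lower signals. Smox, which oxidises spermine, had 126 and 113 against 50.1 and 49.4, and Mxd4, a partner of MAX that opposes MYC, had 65.7 and 84.3 against 26.1 and 37.3. The other kept probe sets of Mxd4, at signals of at most 27.5, differed by 0.052, -0.10 and -0.50. Sh3rf1, a scaffold of JNK signalling, had 49.0 and 44.5 against 20.0 and 17.4, but another of its probe sets had overlapping arrays and a difference of -0.075. Ahsg, the secreted protein fetuin-A, had 67.8 and 94.7 against 21.5 and 31.8. At low signals, Cacna2d2, a calcium channel subunit, had 15.1 and 17.6 against 2.65 and 2.70, and Atp9b, a transporter of the P4 ATPase family, 23.8 and 34.1 against 8.99 and 1.78. Against Dex 1 alone, differences of the 19 genes lay between -1.19 (Tnfsf14) and -0.50 (Psap), and those of the 15 higher genes between 0.52 (Kif2a) and 1.66 (Pglyrp2).

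The same ligand without Dex was measured in other arrays. The levels of these arrays were not used to choose the genes, but the spread of the unstimulated pair is part of the shared spread behind the p-values, so the choice by p may favour genes whose unstimulated arrays lie close together, which bears on the counts of arrays that do not overlap. Dusp6 had 204 and 175 in the unstimulated arrays and 578 and 716 in the CCL1 arrays, 1.44 and 1.94 higher in numbers 1 and 2. Tuba8 had 115 and 211 against 384 and 434, Abat 38.7 and 81.5 against 158 and 149, and Usp18 6.13 and 11.9 against 31.1 and 50.1. In these 4 genes the CCL1 arrays lay above both unstimulated arrays, as they did with Dex. Id2 had 77.5 and 95.5 against 99.6 and 224, with CCL1 1 just above the higher unstimulated array. Of the 15 genes named as higher, 11 lay above the unstimulated array of the same number in both numbers, as 24.1% of all genes did, and in 10 the arrays did not overlap, against 15.0% of all genes. Of the 19 named as lower, 18 lay below in both numbers, against 28.9% of all genes, and in 13 the arrays did not overlap, against 18.9%. In number 1 alone, where both arrays are of 1 type, 14 of the 15 lay above (47.3% of all genes) and 19 of the 19 below (52.7%). By glucocorticoid receptor targets, however, these arrays did not look untreated, at 0.283 in unstimulated 1 and 0.121 in CCL1 1. What that does to the counts without Dex was not tested. The 1 gene of the 19 that did not lie below in both numbers was Tnfsf14, with 11.8 in unstimulated 2 and 11.9 in CCL1 2. Of the higher genes, Mmp9, Il17re and Kif2a differed in direction between the numbers and Cysrt1 was lower with CCL1 in both, at 31.5 and 25.6 against 4.74 and 5.75. Nr4a1 was high in CCL1 1 (87.1 against 34.1) and low in CCL1 2 (8.49 against 7.21), differences of 1.04 and 0.078.

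**Figure D3:**
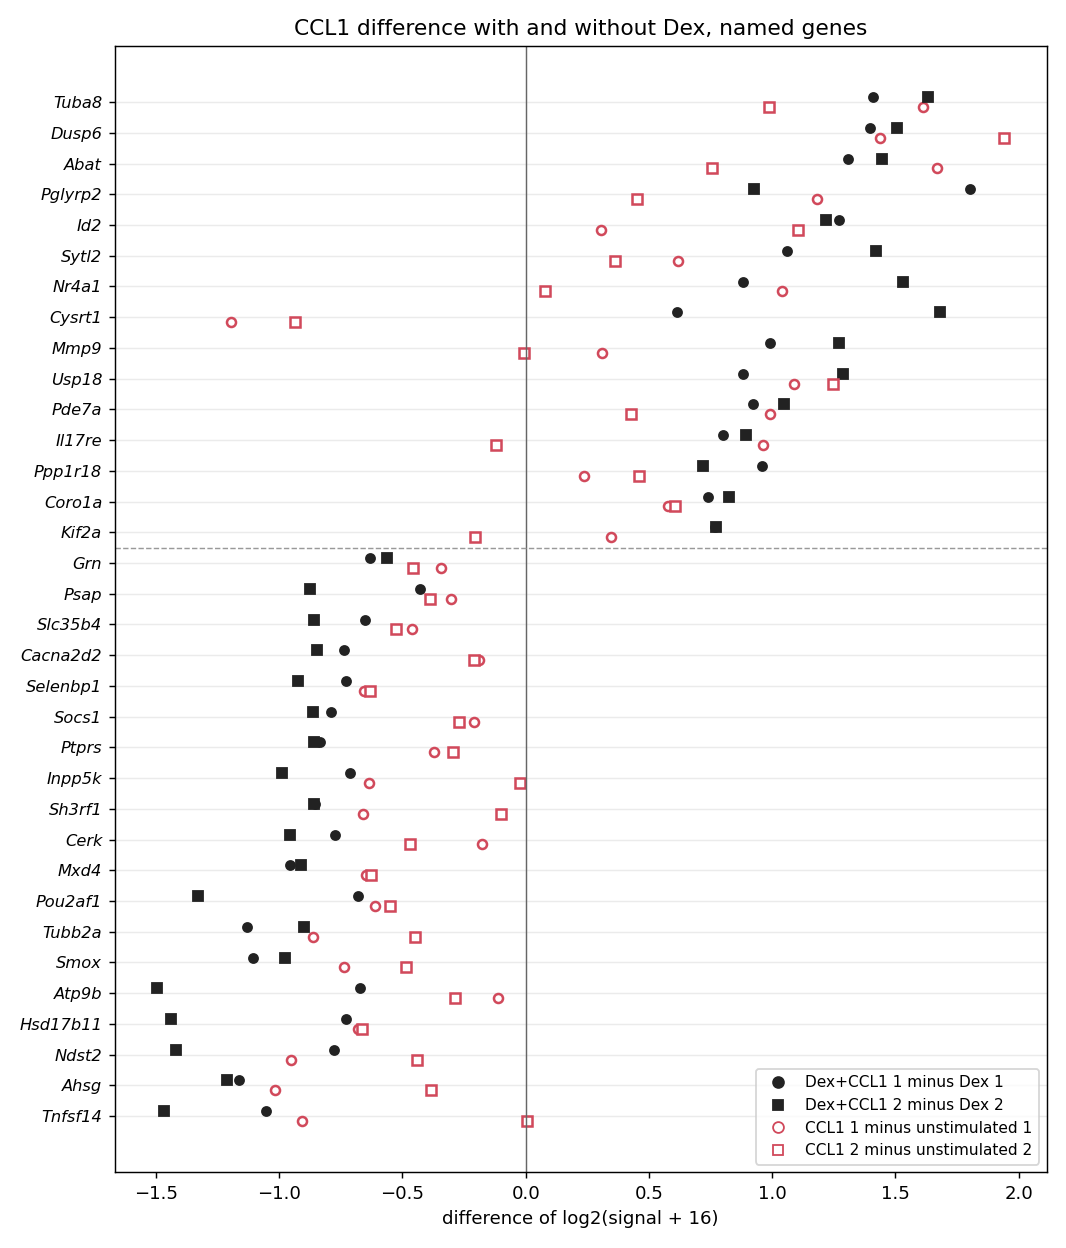
Differences of log2(signal + 16) for the 34 named genes: filled symbols are Dex+CCL1 minus Dex, which chose the genes, and open symbols are CCL1 minus unstimulated, with circles for number 1 and squares for number 2; the dashed line parts the 15 higher from the 19 lower genes. Open symbols of 18 of the 19 lower genes lie below 0 in both numbers, and those of Cysrt1 lie on the other side of 0 from its filled symbols.

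No probe set passed the threshold by limma for CCL1 against unstimulated cells (0%; 446 or 3.29% at an unadjusted p under 0.05), where the tested CCL1 group was 1 array, and none for the difference of the CCL1 response between cells with and without Dex (0%; 390 or 2.87% at an unadjusted p under 0.05). For Dusp6 the second of these was -0.088 (SE 0.26, limma adjusted p = 0.997), and for Tuba8 0.31 (SE 0.40, limma adjusted p = 0.997). For Id2 it was 1.06 and for Sytl2 0.70 (limma adjusted p = 0.997 for both), and with the mean of both CCL1 arrays, untested and across array types, these were 0.54 and 0.75. Of all genes 10.5% had differences with CCL1 that went one way with Dex and the other way without it in both numbers, as had 6 of the 85 genes that the naming rule took. A p above the threshold does not show that the responses were alike, and standard errors of 0.26 and 0.40 leave room for sizeable differences. CCL1 1, the only CCL1 array without Dex in this fit, and unstimulated 1 held glucocorticoid receptor targets within or above the range of the Dex arrays. How far these values set cells with Dex against cells without it was therefore not tested.

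CCL1 and IL-9 were set against each other within Dex-treated cells, a difference of means that holds no array of Dex alone, although the Dex arrays are part of the spread behind its p-values. By limma 13 probe sets passed (0.0958%; 612 or 4.51% at an unadjusted p under 0.05), 6 higher with Dex+CCL1 (0.0442% of those tested) and 7 lower (0.0516%). Dusp6 was higher by 1.88 (SE 0.16, limma adjusted p = 0.00113), with 148 and 134 in the Dex+IL-9 arrays. Tuba8 was higher by 1.88 (SE 0.25, limma adjusted p = 0.0147), with 132 and 85.7 in the Dex+IL-9 arrays, and Ppp1r18 by 1.21 (limma adjusted p = 0.0401). For these 3 genes the Dex+IL-9 arrays lay at or below the Dex arrays or just overlapped them, and the Dex+CCL1 arrays lay above all. Ccr9, a chemokine receptor of thymocytes, was higher by 1.60 and 1.84 in its 2 probe sets, of which the first had 49.9 and 48.0 with Dex, 76.5 and 86.3 with Dex+CCL1, and 16.03 and 15.9 with Dex+IL-9. St3gal2, a sialyltransferase, was higher by 1.23, with 94.8 and 119.7 with Dex, 188 and 158 with Dex+CCL1, and 64.8 and 63.6 with Dex+IL-9. Both genes lay above Dex with CCL1 and below it with IL-9 in the mean.

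On the lower side, Bcl3, an atypical IkB protein, stood at 10.4 and 13.3 with Dex+CCL1 and at 143 and 114 with Dex+IL-9. The difference was -2.37 (SE 0.22, limma adjusted p = 0.00113), and Dex alone, at 10.5 and 2.61, overlapped Dex+CCL1. Ndrg3, of the NDRG family, had differences of -2.91 and -2.86 in its 2 probe sets, Gzma, encoding granzyme A, of -2.10, and Sgk1, a glucocorticoid-inducible kinase, of -1.84. Sgk1 had 67.0 and 62.6 with Dex+CCL1 against 45.0 and 39.3 with Dex alone, without overlap and not past the threshold (0.48, limma adjusted p = 0.738). Socs1 and Ptger4, a receptor for prostaglandin E2, lay below Dex with CCL1 and above it with IL-9. So did 1 Ndrg3 probe set and Gzma. Gzma had 33.5 and 29.8 with Dex, 22.1 and 16.5 with Dex+CCL1, and 151 and 120 with Dex+IL-9. Socs1 had 104 and 108 with Dex+IL-9, against 15.1 and 7.11 with Dex+CCL1, a difference of -2.19 (SE 0.22, limma adjusted p = 0.00156). Ptger4 had 466 and 441 against 162 and 145, with 230 and 248 in Dex alone, a difference of -1.48 (SE 0.15, limma adjusted p = 0.00156). Dusp6, Gzma, Bcl3 and Socs1 stayed past the threshold whichever of the 11 arrays was left out (adjusted p at most 0.0441 by limma). Sgk1 and Ptger4 lost theirs without Dex+IL-9 1 or Dex+CCL1 2 (adjusted p up to 0.0592 and 0.0539). Tuba8, Ndrg3 and Ccr9 lost theirs without arrays of the compared groups, with adjusted p up to 0.321, 0.354 and 0.263, and St3gal2 and Ppp1r18 also without arrays of other groups, with adjusted p up to 0.393 and 0.663. Calls were also lost in other settings, with adjusted p up to 0.111 for Ppp1r18 (pseudocount 1, no filter, quantile normalization, median centring, no intensity trend, and the 6 Dex-treated arrays with or without the replicate block), 0.0927 for St3gal2 (no filter, and the 6 arrays without the block), 0.0599 for 1 Ndrg3 probe set (no filter) and 0.0569 for the second Ccr9 probe set (the 6 arrays without the block).

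**Figure D4:**
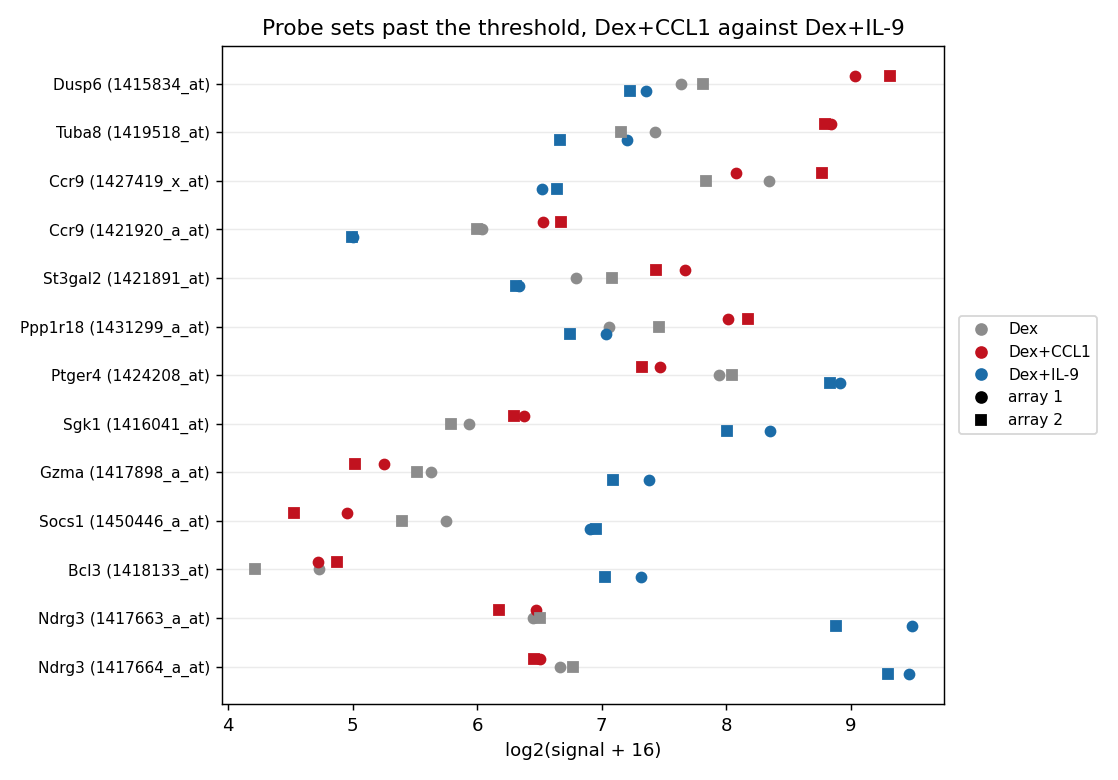
Levels as log2(signal + 16) of the 13 probe sets past the threshold between Dex+CCL1 (red) and Dex+IL-9 (blue), with Dex alone in grey, circles for array 1 and squares for array 2. Dusp6 and Tuba8 are set apart by high Dex+CCL1 arrays, and Bcl3, Gzma and Ndrg3 mostly by high Dex+IL-9 arrays. Dex alone lies between the ligands for the first Ccr9 probe set, St3gal2, Socs1, Ptger4, Gzma and 1 Ndrg3 probe set.

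Each ligand was also compared with Dex alone, and these comparisons share the Dex arrays, so their values are given side by side only. Id2 differed by 1.24 with CCL1 and by 1.07 with IL-9, with 145 and 110 in the Dex+IL-9 arrays, and the direct difference of the ligands was 0.17 (SE 0.18, limma adjusted p = 0.999). Several genes named as lower had low signals under IL-9 too: Mxd4 differed by -0.93 with CCL1 and -1.15 with IL-9, Ahsg by -1.19 and -0.97, Inpp5k by -0.85 and -0.91, Ndst2 by -1.10 and -0.85, and Hsd17b11 by -1.08 and -0.83. Tnfsf14 differed by -1.26 with CCL1 and 0.15 with IL-9, and Ptprs by -0.85 and -0.16. Of the 15 genes named as higher, 14 lay above both Dex+IL-9 arrays, as 17.5% of all genes did, and of the 19 named as lower 12 lay below, against 19.2%. These counts use the Dex+CCL1 arrays that chose the genes.

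Among 7507 genes taken once each, 3444 differences were positive and the median was -0.025, beside which the gene lists below are read. Dusp6 was the 1 member of any list past the threshold. In the list of Ccr8 and G protein signalling 19 of 28 genes were measured above the filter, 0 were called, and the median difference was -0.053. Ccr8 itself, the receptor of CCL1, had 400 and 456 with Dex and 553 and 623 with Dex+CCL1, without overlap. The difference was 0.44 (SE 0.46, limma adjusted p = 0.836). With the 6 Dex-treated arrays alone its SE was 0.16 (limma adjusted p = 0.845), as the unstimulated arrays, at 405 and 159, widen the shared spread. Arrb2, a beta-arrestin that uncouples and internalises receptors, had 72.0 and 56.5 against 128 and 122, and Rgs3, which switches off G protein alpha subunits, 35.4 and 38.6 against 70.6 and 74.6. Their differences of 0.82 (SE 0.24) and 0.74 (SE 0.18) were the highest of the list and did not pass (limma adjusted p = 0.721 and 0.533), and the other kept probe sets of Rgs3 had overlapping arrays and differences of 0.14 and 0.35. Without Dex, Arrb2 had 93.4 and 102 in unstimulated and 93.5 and 95.9 in CCL1 arrays, so the higher level with CCL1 was not seen there. Gnai2, an inhibitory alpha subunit, had overlapping arrays, with a difference of -0.45 and of -0.021 against Dex 1 alone.

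The kinases and adaptors of the RAS-ERK cascade (16 of 23 measured, 0 called) had a median of -0.066 and a range from -0.37 to 0.60. The list of ERK feedback inhibitors (11 of 16 measured, 1 called) also takes in phosphatases of other MAP kinases. In it Dusp6 stood alone: the median was 0.20 and the next highest was Rasa2, a GTPase-activating protein of RAS, at 0.60. Rasa2 had 213 in Dex 1 and 114 in Dex 2, against 214 and 283 with Dex+CCL1, and its difference against Dex 1 alone was 0.19. Dusp1, a nuclear phosphatase of MAP kinases and also a glucocorticoid target, had 199 and 203 with Dex and 128 and 108 with Dex+CCL1. Its difference was -0.70 (SE 0.53, and 0.18 with the 6 Dex-treated arrays alone). Dusp10, which acts more on other MAP kinases than on ERK kinases, had 114 and 98.0 against 79.1 and 68.2. Dusp1 and Dusp10 lay below Dex while Dusp6 lay above it. The immediate-early transcription factors (19 of 29 measured, 0 called) had a median of 0.070. Nr4a1 led them, followed by Maff (0.77), Egr3 (0.57) and Ier2 (0.46), of which Egr3 and Maff were at signals of at most 27.4 in these 4 arrays. Fos was at 0.025 and Myc, at 453 and 513 against 473 and 429, at -0.094. Of the ID and E proteins (6 of 11 measured, 0 called, median 0.13) Id2 was apart from the others, which lay between -0.26 and 0.25.

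The tubulins (8 of 16 measured, 0 called, median 0.094) held both the largest positive difference of the main fit, that of Tuba8, and 1 of the lowest, that of Tubb2a. The other tubulins lay between -0.23 and 0.28. Among Rab27 and synaptotagmin-like proteins (4 of 11 measured, 0 called, median -0.14) Sytl2 was higher with CCL1, whereas Sytl1 had 38.7 and 66.4 with Dex and 24.1 and 34.0 with Dex+CCL1 and Rab27a 16.9 and 18.3 against 7.28 and 6.89. Sytl1 and Rab27a differed by -0.58 and -0.54, neither past the threshold. Against Dex 1 alone Sytl1 was at -0.29, and another kept probe set of Rab27a differed by 0.13. Genes of migration and adhesion (19 of 22 measured, 0 called) had a median of 0.087. After Coro1a came the hyaluronan receptor Cd44, at 323 and 303 against 420 and 574 (0.63), and on the other side the chemokine receptor Cxcr4, at 368 and 491 against 311 and 246 (-0.59, and -0.39 against Dex 1 alone).

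Glucocorticoid receptor targets (13 of 18 measured, 0 called) had a median of -0.15, with 9 of 13 differences negative and 8 of them lower in both numbers, as were 31.4% of all genes. Tsc22d3, which encodes the glucocorticoid-induced leucine zipper, had 349 and 422 with Dex and 280 and 290 with Dex+CCL1, a difference of -0.41 (SE 0.50). Sgk1 and Gpr65, also in this list, had positive differences of 0.48 and 0.66, but that of Gpr65 was -0.025 against Dex 1 alone. Bcl2l11, encoding the BH3-only death protein Bim, had 374 and 673 with Dex and 264 and 297 with Dex+CCL1. Its difference was -0.81 (SE 0.50, limma adjusted p = 0.775, and SE 0.26 with the 6 Dex-treated arrays alone). Against Dex 1 alone it was -0.40, so for this probe set a large share rested on Dex 2. The other kept probe sets of Bcl2l11 differed by -0.55, -0.68, -0.70 and -0.69, without overlap of the groups and not past the threshold. Their signals in Dex 1 and Dex 2 were 101 and 105, 322 and 394, 128 and 128, and 60.7 and 62.4. Nr3c1 had 314 and 118 with Dex and 262 and 195 with Dex+CCL1, with arrays that overlapped, and its difference of 0.20 turned to -0.45 against Dex 1 alone. Il9r stayed between 8.26 and 18.6 in the 4 arrays.

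MYC targets and ribosome biogenesis (19 of 20 measured, 0 called) had 17 of 19 positive differences and a median of 0.24, and against Dex 1 alone 16 were positive with a median of 0.19. Of these, 10 were higher in both numbers, as were 24.0% of all genes, and 1 was lower in both. The median of this list was 0.23 in number 1 and 0.078 in number 2. Ddx21, an RNA helicase of the nucleolus, had 292 and 178 with Dex and 414 and 349 with Dex+CCL1 (0.70), and Srm, spermidine synthase, 555 and 658 against 790 and 749 (0.34). In both genes the arrays of the groups did not overlap, but Ddx21 was at 0.36 against Dex 1 alone, and its second probe set had overlapping arrays and a difference of 0.15. Cholesterol synthesis (15 of 20 measured, 0 called) had 15 of 15 positive differences with a median of 0.18, and against Dex 1 alone 13 were positive with a median of 0.39. Idi1, which isomerises isopentenyl diphosphate, had 229 and 129 with Dex and 363 and 322 with Dex+CCL1 (0.93, and 0.55 against Dex 1 alone), and Cyp51, the sterol demethylase, 347 and 476 against 560 and 607 (0.50). None of these members passed the threshold, and how far other genes move in the same way was not tested. Against Dex 1 alone 3547 of all 7507 genes were positive, with a median of -0.017. The 4 measured housekeeping genes had 3 positive differences and a median of 0.16, and against Dex 1 alone 2 and 0.030.

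**Figure D5:**
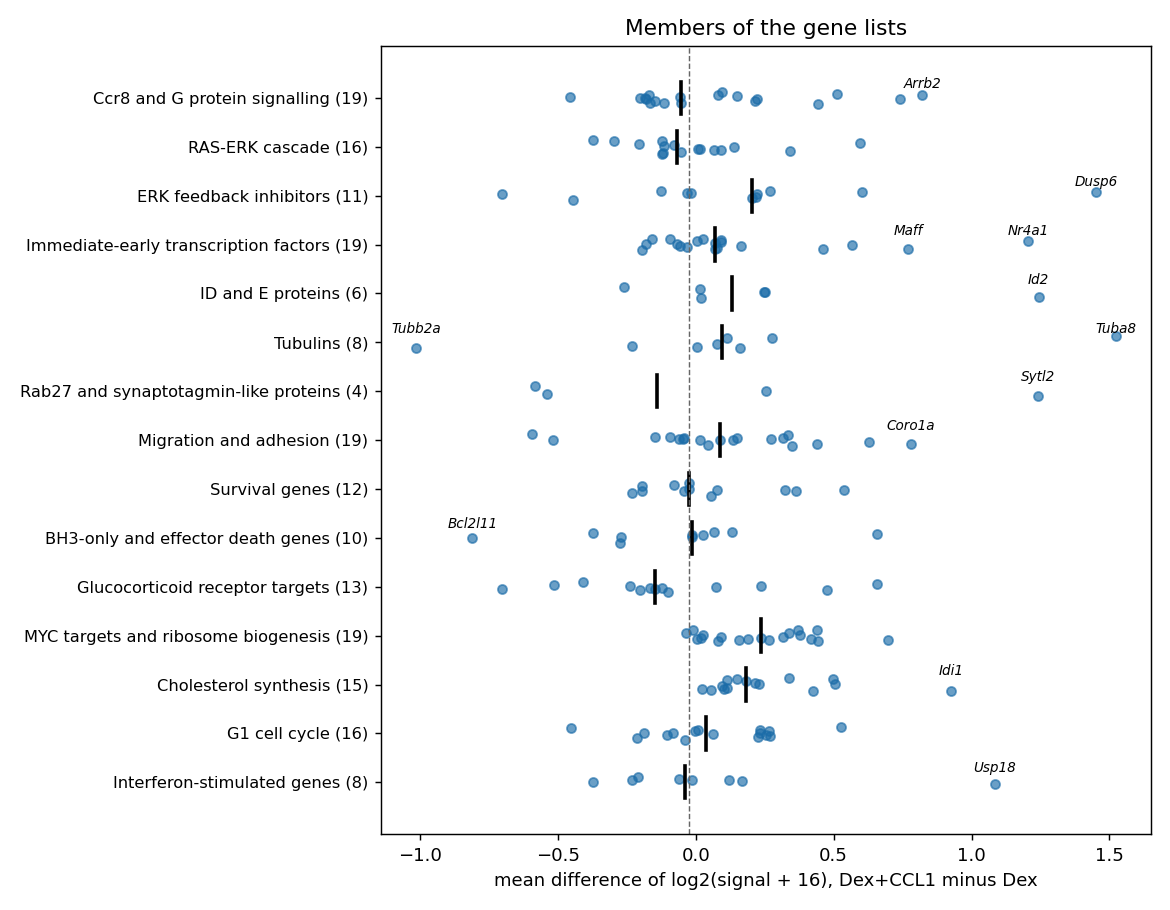
Mean difference of log2(signal + 16), Dex+CCL1 minus Dex, of each measured member (points) of 15 gene lists, with the number of measured members in brackets, the median of each list as a bar and the median of all 7507 genes, -0.025, as a dashed line. Dusp6, Id2, Tuba8 and Sytl2 lie far from the other members of their lists, and all 15 members of the cholesterol list lie above 0.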

How the data were processed

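Per the submitters' processing notes the deposited values are signal intensity values of MAS5, on a linear scale; the sources used here do not state its version or a genome build. In each array the mean after trimming 2% at each end was 100. Signals of the 11 arrays of the larger deposited table were transformed as log2(signal + 16). After removal of 64 control probe sets from 22690, those above the 40th percentile of the mean were kept (13575; a signal of 6.32). Limma 3.58.1 (R 4.3.3) fitted 1 mean per group over all 11 arrays, with an intensity trend, 5 residual and 6.474 prior degrees of freedom, with p-values adjusted (Benjamini-Hochberg) across every probe set kept. The fit was also run on simulated data with independent noise and no array that stood apart. That run cannot show how the fit behaves with an array like Dex 2. CCL1 2, of another array type and in the other deposited table, gave number by number values and counts of overlap, and entered the fit in 1 alternative only.

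Genes were named from probe sets with 1 symbol in the platform annotation (20380; 691 had several and 1555 none), by the one of highest mean, which gave 7507 genes. Identifiers of 20364 matched RefSeq on GRCm38.p6, which changed 0 symbols. Named genes were those past the threshold, the 12 of smallest p and the 12 of largest smaller number by number difference in each direction, the receptors Ccr8, Nr3c1 and Il9r, Dusp6, Id2, Tuba8 and Sytl2, and the 3 of smallest p in each of 22 gene lists. Further list members and probe sets were picked with their values in view. The comparison, members and lists were chosen with earlier results of these data known. Alternatives were other pseudocounts, filters, scalings, variance models, array sets and a replicate block.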

Additional observations from a re-analysis of the deposited data

Results flagged for a closer look

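In 6 of the 85 genes that the naming rule took, and in 10.5% of all 7507 genes, both number by number differences with CCL1 went one way with Dex and the other way without it. These differences between conditions, of 1 array against 1 array, were not tested, and CCL1 2 was of another array type. Unstimulated 1 and CCL1 1 did not look untreated by their glucocorticoid receptor targets. The mean CCL1 difference with Dex minus that without was 2.21 for Cysrt1, 1.05 for Ccl8, which encodes another ligand of Ccr8, 0.91 for Rasa1, a GTPase-activating protein of RAS, 0.82 for Rb1, the retinoblastoma protein, -0.50 for Lyz2, encoding lysozyme, and 0.22 for Cd68, a macrophage glycoprotein. For Cysrt1 the differences were 0.61 and 1.68 with Dex and -1.20 and -0.93 without it. For Ccl8 they were 0.23 and 0.80 with Dex and -0.47 and -0.61 without it. Its signals were 6.94 and 0.376 with Dex and 10.9 and 12.4 with Dex+CCL1, near the filter's signal of 6.32, so these differences are poorly set. Against Dex 1 alone the difference with Dex was 0.020 for Rasa1 and -0.025 for Rb1, so the mean rises of both rested on Dex 2. The model over 11 arrays, which holds CCL1 1 alone, called none of the 6 by limma (for Cysrt1 2.25, limma adjusted p = 0.997).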

How the results depend on the processing

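With 2 arrays per group precision is limited. The count of 1 for Dex+CCL1 against Dex was 0 without the intensity trend, with array quality weights, with the 6 Dex-treated arrays only and with the 4 arrays of Dex and Dex+CCL1 only. With the replicate number as a block over 11 arrays it stayed 1 (Dusp6 adjusted p = 0.0235 by limma), and with the 6 Dex-treated arrays and the replicate block it was 2, Tuba8 joining (limma adjusted p = 0.0471 for both). Deviations of same-numbered arrays had correlations from -0.0051 to 0.307, the highest being that of the compared groups, Dex with Dex+CCL1. The labels do not say that a number marks a shared culture, so the main fit did not take the 2 numbers as pairs. Without 1 array the count ranged from 0 to 531; 531 arose without Dex 1, which leaves Dex 2 alone in its group (484 higher and 47 lower). The count of 13 for Dex+CCL1 against Dex+IL-9 was 21 with array quality weights, 25 with the 6 Dex-treated arrays and the block, 46 with the 6 Dex-treated arrays without Dex 2 (added after the data were seen), and 4 to 21 without 1 array (4 without Dex+IL-9 1 or Dex+CCL1 2, 6 without Dex+IL-9 2, 7 without Dex+CCL1 1, 20 without Dex 1 and 21 without Dex 2). For CCL1 against unstimulated cells it was 1 with a pseudocount of 64, array quality weights, CCL1 2 added or 1 probe set per gene, and 0 to 1 without 1 array (1 without Dex 1 or Dex 2); for the difference by Dex it was 0 to 101 without 1 array, 101 without Dex 1. Probe sets past 1 log2 in both numbers, 6 higher and 2 lower, became 55 and 61 with a pseudocount of 1 and 2 and 0 with one of 64. Of genes far from the threshold, Col1a2 turned to -0.016 with a pseudocount of 1, and 9 of the 85 genes that the naming rule took changed sign without 1 array: differences without 1 array ranged from -0.45 to 0.85 for Nr3c1, -0.65 to 0.13 for Tcf12, -0.19 to 1.27 for Birc6, -0.025 to 1.08 for Rb1, -0.24 to 0.35 for Col1a2, -0.15 to 0.24 for Krt8, -0.11 to 0.73 for Actb, -0.085 to 0.51 for Rpl13a and -0.11 to 0.31 for Hprt. With the 6 Dex-treated arrays without Dex 2 they were -0.45 for Nr3c1, -0.19 for Birc6, -0.025 for Rb1, -0.12 for Krt8 and -0.11 for Hprt. The cause of these shifts was not tested.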

Other observations

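In the lists that follow limma called 0 members each. Arrays of the groups did not overlap for 4 of 10 BH3-only and effector death genes, 1 of 12 survival genes, 4 of 16 G1 genes and 3 of 8 interferon-stimulated genes, in either direction. Of all genes 12.7% did not overlap in the higher and 20.8% in the lower direction. Survival genes (12 of 16 measured) had a median difference of -0.024 between Dex+CCL1 and Dex. Of them 0 were higher in both numbers and 3 lower in both, against 24.0% and 31.4% of all genes. Bcl2l1, which encodes Bcl-xL, was at -0.078 and Mcl1 at 0.055. BH3-only and effector death genes (10 of 18 measured) had a median of -0.014, with Bcl2l11 lowest. G1 cell cycle genes (16 of 19 measured) had a median of 0.036 and a range from -0.45 to 0.53. Interferon-stimulated genes (8 of 17 measured) had a median of -0.037: Usp18 was alone at 1.08, and Bst2, an antiviral membrane protein, was at 159 and 180 with Dex and 124 and 130 with Dex+CCL1. T cell markers (8 of 13 measured) had a median of -0.0097, macrophage markers (4 of 8) of 0.012 and housekeeping genes (4 of 6) of 0.16, the last with medians of -0.093 in number 1 and 0.42 in number 2. Fibroblast and epithelial markers had 1 measured gene each, at 0.056 (Col1a2) and 0.044 (Krt8).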
